A study of Mus musculus with 12 samples.

Results

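The 10 genes that carry the leptin and insulin signals into hypothalamic cells were followed across single mice. They were found by symbol in the deposited table of normalised read counts, and all 10 were present, out of 32494 listed genes. The set holds the leptin receptor Lepr with its kinase Jak2, the transcription factor Stat3, the adaptor Sh2b1 and the brakes Socs3 and Ptpn1. It also holds the insulin receptor Insr, the docking proteins Irs1 and Irs2, and the transcription factor Foxo1. All 10 passed the minimum level for testing.

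Leptin, a hormone of fat tissue, binds LEPR and activates the kinase JAK2 bound to it. JAK2 then phosphorylates STAT3, which enters the nucleus and switches on genes that include Socs3, and SOCS3 protein feeds back to stop the receptor. PTP1B, the product of Ptpn1, removes phosphate from both JAK2 and the insulin receptor, whereas SH2B1 strengthens signalling from both. Insulin acts through INSR and the IRS proteins on the PI3-kinase and AKT pathway, which keeps FOXO1 out of the nucleus. In the hypothalamus both routes act on the neurons that set appetite and energy use. Much of this control is on protein phosphorylation, which RNA levels do not report.

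The libraries came from the hypothalamus of 12 male mice, with tissue taken 5 weeks after tamoxifen and an age of 8 weeks in the growth protocol, which does not say at which step. Every mouse had floxed Smc3 alleles and received tamoxifen, and the title of every sample also holds the word control. The group labelled WT (7 mice) lacked the Camk2a-cre/ERT2 transgene, and the group labelled cKO (5 mice) carried it. The Camk2a promoter drives the tamoxifen-activated recombinase mainly in excitatory neurons of the forebrain, so a whole hypothalamus also contains many cells outside its reach. The series title ties forebrain Smc3 to body weight and metabolism, and the question here is whether genes of these hormone signals differed between the groups. Where whole tissue is measured, fewer cells of a type and less RNA per cell cannot be told apart.

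Smc3, the floxed gene, went against the labels. It was at 76.8 to 85.7 CPM (a gene's reads put on a common scale of library depth) in the libraries labelled WT and at 116 to 144 CPM in those labelled cKO (limma log2 fold change 0.67, adjusted p-value 3.06e-05). Every direction below therefore refers to the libraries labelled cKO. WT 1 was the deepest library, with 68.7 M reads, and the other 11 held 17.1 to 24.0 M each. The dissections also differed in content. The score of 14 hypothalamic marker genes (the mean of log2(CPM + 1), with Avp, Oxt and Pmch among them) was 1.82 in WT 5, 1.85 in WT 4, 2.25 in cKO 12 and 2.59 in cKO 13, and at least 3.20 in the other 8 libraries, so member values are also given for these 4 libraries apart. The score of 6 oligodendrocyte markers was 9.29 to 9.48 in the same 4 libraries and 8.30 to 9.02 in the other 8. The score of 6 endothelial markers also set them apart, at 5.23 to 5.38 against 4.99 to 5.18, so low hypothalamic, high oligodendrocyte and high endothelial content cannot be told apart here. Of the 12 hypothalamic genes tested 0 were past the limma threshold, their summed level was 61.2 to 653 CPM in the libraries labelled WT and 142 to 585 CPM in those labelled cKO, and the other 2, Agrp and Kiss1, were under a mean of 1 CPM and not tested. The score of 12 thalamic marker genes was lower in the libraries labelled cKO, at 5.50 to 6.40 against 6.16 to 7.14 (exact permutation p-value 0.0253, or 0.136 adjusted over 12 marker lists), with 1474 to 2384 CPM in sum in the libraries labelled WT and 1124 to 1581 CPM in those labelled cKO. Of its 12 genes 5 were past the limma threshold, all lower. Because this score partly followed the group labels, a fit with it as a covariate cannot separate thalamic content from the group. A call lost in such a fit is therefore a description.

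The changes among the members were few and small. Of the 10 genes, 2 differed between the groups by limma at an adjusted p-value under 0.05 over all tested genes. Jak2 was higher and Sh2b1 was lower in the libraries labelled cKO. Over all 15359 tested genes 14.1% were past this threshold, 6.54% higher and 7.60% lower, so a count of 2 in 10 lies near the background. After median centring the split over all genes was 1377 higher and 1054 lower, in place of 1004 and 1168. The differences of the 10 genes ran from -0.23 for Foxo1 to 0.17 for Stat3 on the log2 scale. The median absolute log2 fold change was 0.12 over the members and 0.10 over all tested genes. At an unadjusted p-value under 0.05 the number was 4, with Stat3 and Foxo1 besides Jak2 and Sh2b1, and 31.1% of all tested genes were under it. The groups were free of overlap for 1 of 10, Jak2, as they were for 6.73% of all tested genes.

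**Figure D1:**
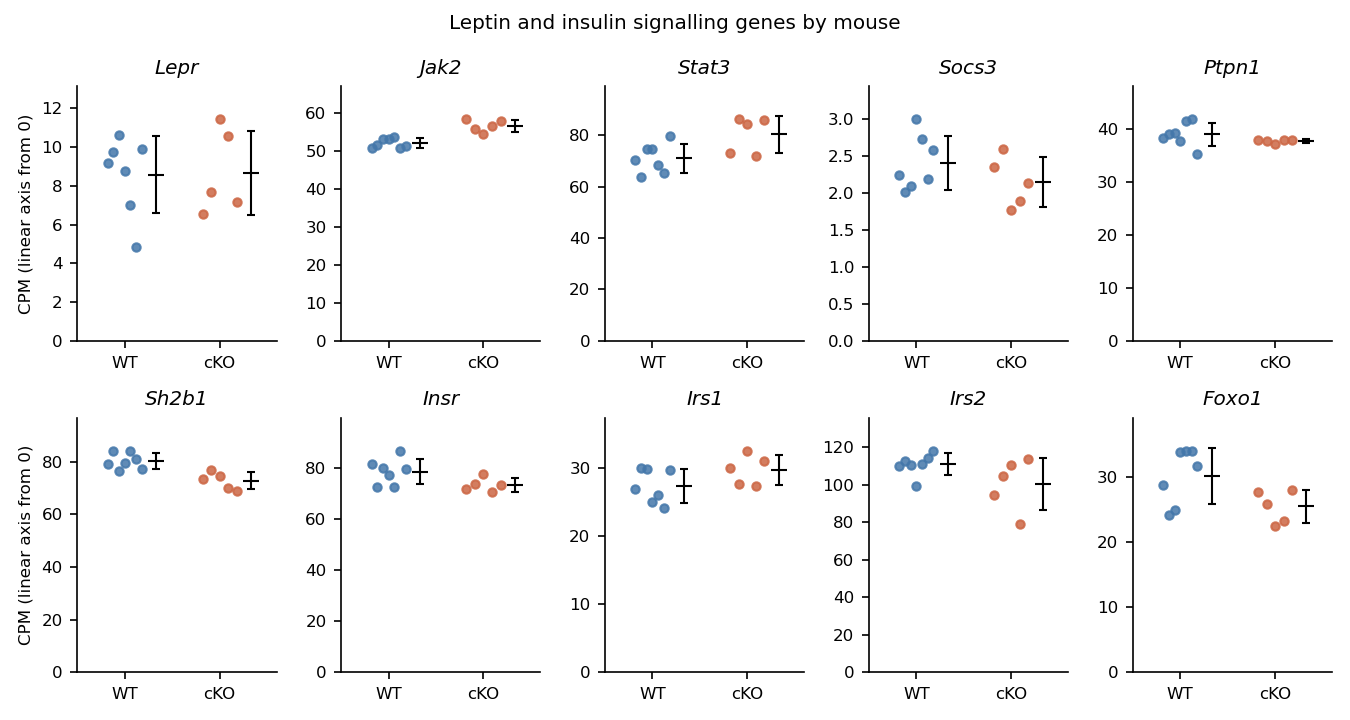
CPM of each of the 10 genes in single mice, on linear axes from 0, for the 7 libraries labelled WT (blue) and the 5 labelled cKO (orange), with the mean and SD in black. The groups separate for Jak2 only, at 50.6 to 53.6 CPM against 54.4 to 58.2 CPM, and mice within a group spread widely for Lepr.

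The order of the genes by level can only be read per length. Per kilobase of merged exons (GENCODE M21), the level in the libraries labelled WT was highest for Sh2b1, at 20.4 ± 0.774 CPM per kilobase (SD, n = 7), followed by Irs2 at 17.5 ± 0.915 and Jak2 at 10.3 ± 0.243. Stat3 (7.46 ± 0.594) and Ptpn1 (7.05 ± 0.405) overlapped with each other. Insr followed at 5.73 ± 0.364. Foxo1 (3.48 ± 0.495) and Irs1 (2.99 ± 0.269) overlapped with each other, as did Lepr (1.22 ± 0.284) and Socs3 (0.832 ± 0.127), the lowest of the set. Other neighbours in this order had ranges that did not overlap over the 7 mice. In the libraries labelled cKO the order was the same except that Irs1 (3.25 ± 0.240) stood above Foxo1 (2.94 ± 0.291), again with overlapping ranges. There the ranges of Sh2b1 (18.5 ± 0.824) and Irs2 (15.9 ± 2.20) also overlapped, and those of Stat3 with Ptpn1 and of Lepr with Socs3 did not. Within these 10 genes the leptin receptor was thus second from the bottom in both groups, and its adaptor Sh2b1 was at the top.

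Lepr, the receptor through which leptin is sensed, did not differ detectably between the groups. In the libraries labelled WT it ran from 4.83 CPM (WT 11) through a median of 9.17 to 10.6 CPM (WT 5). In those labelled cKO it was at 6.55 in cKO 8, 7.70 in cKO 9, 11.4 in cKO 12, 10.5 in cKO 13 and 7.16 in cKO 14. The groups overlapped almost completely, with 117 to 631 reads behind each value. By limma the difference was 0.019 on the log2 scale (SE 0.17, adjusted p-value 0.957), and its 95% interval, from -0.35 to 0.39, leaves room for a change of either sign. Lepr varied most of the 10 between mice, with a coefficient of variation of 23.4% in the WT group and 25% in the cKO group, where counting error alone would give 7.11% and 7.70%. Its sign was not stable, and with the thalamic marker score as a covariate the log2 fold change was -0.36 (limma adjusted p-value 0.183, where 5.32% of all tested genes were past the threshold). Lepr was at 9.76 to 11.4 CPM in the 4 libraries of low hypothalamic score and at 4.83 to 9.88 CPM in the other 8. The gene total does not separate the long signalling form of the receptor from the short forms. Leprot, the gene for a protein that limits leptin receptors at the cell surface, shared no exon with Lepr in GENCODE M21.

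Jak2, the kinase that leptin receptors work through, rose in the libraries labelled cKO. The gene lies at chr19:29251828-29313080 (GRCm38, GENCODE M21, plus strand). It was at 50.6 CPM in the lowest library labelled WT (WT 11), with a median of 51.5 and a highest value of 53.6 (WT 7). In the libraries labelled cKO it was at 58.2 in cKO 8, 55.7 in cKO 9, 54.4 in cKO 12, 56.4 in cKO 13 and 57.7 in cKO 14. Every library labelled cKO lay above every one labelled WT. The means were 52.0 ± 1.22 CPM (SD, n = 7) and 56.5 ± 1.53 CPM (SD, n = 5), a difference of 8.68%. By limma this was 0.12 on the log2 scale (SE 0.032, adjusted p-value 0.0296), with an exact permutation p-value of 0.00126, the smallest that the 7 and 5 mice allow. Jak2 also varied least among the 10 within the WT group, with a coefficient of variation of 2.35% where counting error alone would give 2.79%. The size of the difference was steady and its call was not. The call was lost without WT 1 (limma adjusted p-value 0.0699), WT 4 (0.0518), WT 11 (0.0561), cKO 8 (0.0667), cKO 9 (0.0507) or cKO 14 (0.0650), with log2 fold changes of 0.11 to 0.13 over all 12 fits that left out 1 mouse. It was also lost without the 4 libraries of low hypothalamic score (0.14, limma adjusted p-value 0.0578, where 10.3% of all genes were called). After correction for GC content and length it was lost as well (0.098, limma adjusted p-value 0.0632). With the thalamic score as a covariate the difference was 0.13 with a larger SE of 0.042 (limma adjusted p-value 0.0794, where 5.32% of all genes were called).

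The region before the start of Jak2 is shown because it is the member whose groups separated. The 250 bases before the RefSeq start (GRCm38.p6, chr19:29251553-29251802, plus strand) were 80.8% G or C, above 99.0% of the 32851 windows of the same length. Neither motif searched for below occurs in it, so it carries no capitals.
Jak2 promoter: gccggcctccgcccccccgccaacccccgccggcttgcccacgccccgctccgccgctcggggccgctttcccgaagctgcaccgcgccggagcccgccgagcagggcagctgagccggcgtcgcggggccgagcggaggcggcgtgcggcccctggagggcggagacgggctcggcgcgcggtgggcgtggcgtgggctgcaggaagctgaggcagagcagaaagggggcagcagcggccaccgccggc

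Sh2b1, an adaptor that binds JAK2 and strengthens leptin and insulin signalling, fell in the libraries labelled cKO. The gene lies at chr7:126466994-126475424 (GRCm38, GENCODE M21, minus strand). It ran from 76.5 CPM (WT 5) through a median of 79.6 to 84.2 CPM (WT 4) in the libraries labelled WT. In those labelled cKO it was at 73.3 in cKO 8, 76.9 in cKO 9, 74.4 in cKO 12, 70.0 in cKO 13 and 68.9 in cKO 14. Only cKO 9 reached the WT range, and 4 of 5 libraries labelled cKO lay below every one labelled WT. The means were 80.2 ± 3.04 CPM (SD, n = 7) and 72.7 ± 3.24 CPM (SD, n = 5), so the level dropped by 9.40%. By limma this was -0.14 on the log2 scale (SE 0.039, adjusted p-value 0.0296, exact permutation p-value 0.00379). As for Jak2, the size of the difference was steadier than its call, at -0.16 to -0.12 over the 12 fits that left out 1 mouse. The call was lost without WT 1 (limma adjusted p-value 0.0559), WT 4 (0.0553), WT 7 (0.0534), WT 11 (0.0524), cKO 13 (0.0603) or cKO 14 (0.0715), after median centring (-0.13, 0.0528) and with the thalamic score as a covariate (-0.13, 0.150). It was also lost without the 4 libraries of low hypothalamic score (-0.13, limma adjusted p-value 0.0915).

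Jak2 and Sh2b1 lie towards opposite ends of base composition. The longest coding transcript of Jak2 had 44.3% G and C, above 19.5% of tested genes, and that of Sh2b1 had 60.0%, above 94.8%. The other members ran from 41.6% (Lepr) to 58.7% (Socs3), and none of them was past the threshold in the main test. Over the 14515 tested genes with a transcript, and genes are not independent of each other, the log2 fold change fell with GC content (Spearman's rho -0.212). When each library was corrected for GC content and length, rho became 0.00817, as the correction removes such a trend by construction. In that fit, chosen after seeing the data, Sh2b1 had a log2 fold change of -0.070 (limma adjusted p-value 0.132) and 1 of the 10 members, Stat3, was past the threshold, as were 13.6% of the 14515 genes.

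As a ratio within each library, which no scaling of libraries can move, Jak2 to Sh2b1 was 0.612 to 0.692 in the libraries labelled WT and 0.724 to 0.837 in those labelled cKO. The ranges did not overlap. This pair was chosen after its values were seen, and so the ratio is given as a description.

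Stat3, the transcription factor that carries the leptin signal to the nucleus, was higher on average in the libraries labelled cKO but did not pass the threshold. It ran from 63.7 CPM (WT 4) through a median of 70.5 to 79.6 CPM (WT 15) in the libraries labelled WT. In those labelled cKO it was at 73.3 in cKO 8, 86.2 in cKO 9, 84.5 in cKO 12, 71.9 in cKO 13 and 85.8 in cKO 14. In 3 of the 5, cKO 9, cKO 12 and cKO 14, Stat3 lay above every library labelled WT, and in the other two it lay within the WT range. The means were 71.0 ± 5.66 CPM (SD, n = 7) and 80.3 ± 7.11 CPM (SD, n = 5), which limma put at 0.17 on the log2 scale (SE 0.065, adjusted p-value 0.0870, exact permutation p-value 0.0366). It passed the threshold after the GC content and length correction (0.24, limma adjusted p-value 0.0217) and with limma's weights for single libraries (0.22, 0.00606), which called 33.4% of all tested genes. With the thalamic score as a covariate the log2 fold change was 0.091 (limma adjusted p-value 0.503). Exons of Stat3 overlap those of Stat5a on the opposite strand over 72 bases, 0.756% of its exon length, and Stat5a was far scarcer, at 3.6 CPM in the cKO group.

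Socs3, the feedback inhibitor that activated STAT3 induces, was the scarcest of the set and did not differ detectably. It ran from 2.02 to 3.0 CPM in the libraries labelled WT and from 1.77 to 2.60 CPM in those labelled cKO, on 36 to 154 reads per library. By limma it differed by -0.11 on the log2 scale (SE 0.095, adjusted p-value 0.447), with a 95% interval from -0.32 to 0.091. The spread between mice, 15.2% in the WT group and 15.5% in the cKO group, stood beside 13.1% and 15.2% from counting error alone.

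The Socs3 promoter is shown because it is the only window among those of the members with a match to the STAT motif. The motif searched was TTCNNNGAA, which reads the same on both strands, and it occurs in 7.02% of the 32851 RefSeq windows of 250 bases. The other motif was GTAAACA for FOXO factors, searched on both strands, which occurs in 3.17% of windows and in none of a member. Windows were found for 9 of the 10 members, with 11 windows in all, and Insr had none. The sequence (GRCm38.p6, chr11:117969367-117969616, minus strand) ends at the base before the RefSeq start, and the capitals mark the match, which begins 154 bases before it. A match of letters is not a measured binding site.
Socs3 promoter: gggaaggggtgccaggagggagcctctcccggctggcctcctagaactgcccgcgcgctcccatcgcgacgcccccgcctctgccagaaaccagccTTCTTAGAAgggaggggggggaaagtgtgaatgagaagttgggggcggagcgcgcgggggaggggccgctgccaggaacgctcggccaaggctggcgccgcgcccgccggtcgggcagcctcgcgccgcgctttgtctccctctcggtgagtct

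Ptpn1, which encodes the phosphatase PTP1B that dampens leptin and insulin receptors, did not differ detectably. It ran from 35.3 to 41.8 CPM in the libraries labelled WT and from 37.2 to 38.0 CPM in those labelled cKO. By limma it differed by -0.043 on the log2 scale (SE 0.043, adjusted p-value 0.538), with a 95% interval from -0.14 to 0.050. The 5 libraries labelled cKO differed by less than counting error, with a coefficient of variation of 0.911% where counting error would be 3.6%. Among the libraries labelled WT, Ptpn1 moved with the thalamic marker score (Pearson r 0.958, exact permutation p-value 3.97e-04; Spearman's rho 0.964, exact p-value 0.00278, n = 7). Over the 120 pairs of a marker list and a member the adjusted p-values were 0.0476 for r and 0.333 for rho, and r was 0.925 without the 2 libraries farthest from the median score. In the libraries labelled cKO the score ran from 5.50 to 6.40, with Ptpn1 at 37.2 to 38.0 CPM throughout. With that score as a covariate, at 1 common slope for both groups, the log2 fold change was 0.035 (limma adjusted p-value 0.682).

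Insr, the insulin receptor, was slightly lower on average in the libraries labelled cKO, without passing the threshold. It ran from 72.8 to 86.8 CPM in those labelled WT and from 70.6 to 77.5 CPM in those labelled cKO, with 2 of the 5 below every library labelled WT. By limma it differed by -0.096 on the log2 scale (SE 0.046, adjusted p-value 0.173, exact permutation p-value 0.0606), with a 95% interval from -0.20 to 0.0030. It passed the threshold under 1 of 16 alternatives, limma's weights for single libraries (-0.13, adjusted p-value 0.0210).

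Irs1 and Irs2 encode the docking proteins that insulin and insulin-like growth factor receptors phosphorylate, and IRS2 is the form tied to appetite control in the hypothalamus. Their averages lay on opposite sides of no change, and neither passed the threshold. Irs1 ran from 24.1 to 30.0 CPM in the libraries labelled WT and from 27.4 to 32.5 CPM in those labelled cKO (limma, 0.12 on the log2 scale, SE 0.066, adjusted p-value 0.253), with a 95% interval from -0.026 to 0.26. Irs2 ran from 99.4 CPM (WT 6) through a median of 111 to 118 CPM (WT 15) in the libraries labelled WT. In those labelled cKO it was at 94.6 in cKO 8, 105 in cKO 9, 110 in cKO 12, 79.3 in cKO 13 and 114 in cKO 14 (limma log2 fold change -0.15, SE 0.076, adjusted p-value 0.195), with a 95% interval from -0.31 to 0.013. A single library, cKO 13, held much of the Irs2 difference, and without it the log2 fold change was -0.069. The ratio of Irs2 to Irs1 CPM was 3.73 to 4.74 in the libraries labelled WT and 2.90 to 3.79 in those labelled cKO, with overlap. Exons of the predicted gene Gm9747 lie opposite Irs1 over 2822 bases, 30.9% of the Irs1 exon length. The strand setting of the counting is not given in the sources used here, so reads of Irs1 and of an antisense transcript cannot be told apart. The same holds over 674 bases of Foxo1 (7.78%). Irs2 shares 162 bases (2.56%) with 9530052E02Rik on the opposite strand, which was at means of 0.710 CPM in the WT and 0.495 CPM in the cKO group.

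Foxo1, the transcription factor that insulin keeps out of the nucleus, had the largest average difference of the 10 and did not pass the threshold. It ran from 24.2 CPM (WT 4) through a median of 31.6 to 34.0 CPM (WT 11) in the libraries labelled WT. In those labelled cKO it was at 27.7 in cKO 8, 25.8 in cKO 9, 22.5 in cKO 12, 23.2 in cKO 13 and 28.1 in cKO 14. By limma it differed by -0.23 on the log2 scale (SE 0.096, adjusted p-value 0.125, exact permutation p-value 0.0619), and the ranges overlapped through WT 4 and WT 5, the 2 libraries labelled WT with the lowest hypothalamic marker score.

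Foxo1 was then read within the sets of libraries with like marker scores, a split made after WT 4 and WT 5 were seen to hold the overlap, so its values are a description and do not test a difference. In the 8 libraries of higher score Foxo1 was at 28.7 to 34.0 CPM in the 5 labelled WT and at 25.8 to 28.1 CPM in the 3 labelled cKO. In the 4 libraries of low score it was at 24.2 and 24.9 CPM in the pair labelled WT and at 22.5 and 23.2 CPM in the pair labelled cKO. The nearest values of the groups in the larger set, 28.1 and 28.7 CPM, lay close together. The log2 fold change was -0.24 in the 8 libraries and -0.096 in the 4, and whether these differ was not tested. Foxo1 was past the threshold in the 8 (limma adjusted p-value 0.0441, where 10.3% of all genes were called) and not in the 4 (0.667). The split followed from the Foxo1 values, so this call too is a description. With the hypothalamic score as a covariate over all 12 libraries it was -0.26 (SE 0.055, limma adjusted p-value 0.00820, with 19.9% of all genes past the threshold). With both the hypothalamic and thalamic scores it was -0.18 (0.0890), and with the thalamic score alone -0.13 (0.541). The fit with the hypothalamic score alone was also chosen after these values were seen. Among the libraries labelled WT, Foxo1 had a Pearson r of -0.950 with the oligodendrocyte score (exact permutation p-value 0.00694). With the endothelial score r was -0.759 (0.0563), and with the hypothalamic score 0.846 (0.0278). With the tanycyte and ependyma score it was 0.842 (0.0143), and with the astrocyte score -0.752 (0.0391). For each of these scores the adjusted p-value over 120 pairs was 0.402. Without the 2 libraries farthest from the median score r was -0.782, -0.675, -0.0763, 0.172 and -0.675 in that order. The part of the oligodendrocyte and endothelial scores, which set the same 4 libraries apart, in the group difference was not tested. Nor was that of the tanycyte and ependyma score or of the astrocyte score.

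**Figure D2:**
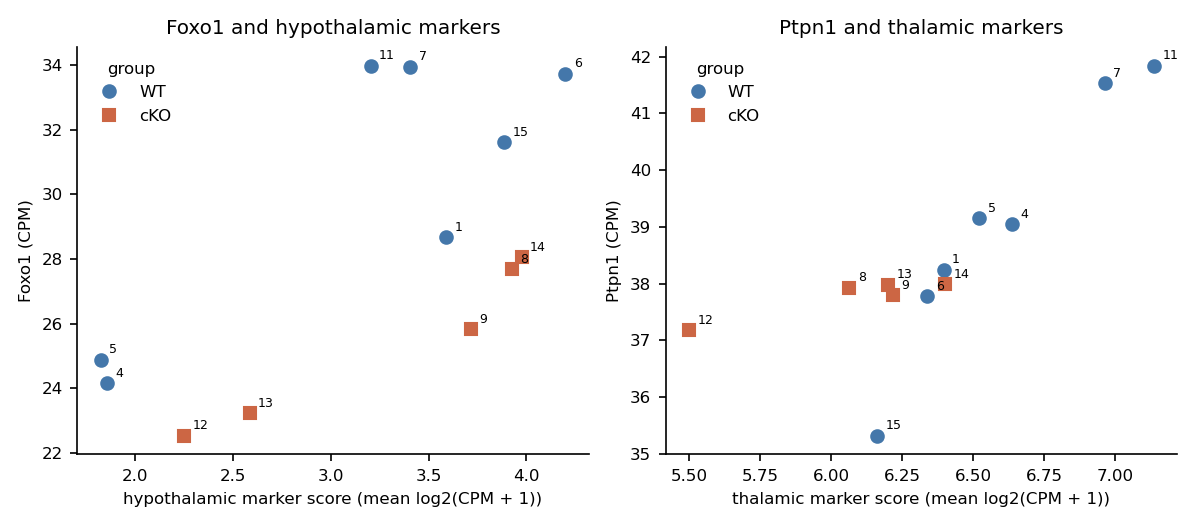
Foxo1 CPM against the hypothalamic marker score (left) and Ptpn1 CPM against the thalamic marker score (right), one point per mouse, with the mouse number, for the 7 libraries labelled WT (circles) and the 5 labelled cKO (squares); the vertical axes do not start at 0. On the left, 4 libraries sit at scores of 1.82 to 2.59 with Foxo1 at 22.5 to 24.9 CPM, and at higher scores the squares lie below the circles. On the right, the circles rise with the score and the squares stay at 37.2 to 38.0 CPM.

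The same split was read for the other members, as log2 differences in the 8 libraries and then in the 4. Jak2 differed by 0.14 and 0.083, Sh2b1 by -0.13 and -0.15, and Stat3 by 0.19 and 0.17. Insr differed by -0.12 and -0.044, and Irs2 by -0.085 and -0.26, with cKO 13, the lowest library for Irs2, among the 4. Whether the sets differ was not tested. Irs1 differed by 0.16 and -9.24e-04, Lepr by -0.10 and 0.10, Socs3 by -0.075 and -0.11, and Ptpn1 by -0.035 and -0.056. The sign was thus the same in both sets for 8 of the 10 genes, all but Lepr and Irs1. The share of all tested genes with the same sign is not given here, so this count is a description. The set of 4 held 2 libraries of each group, and 0 members had an unadjusted limma p-value under 0.05 in it. Over the 45 pairs of members within the WT group, none of the correlations passed an adjusted p-value of 0.05. With 7 mice a strong correlation can fail this threshold. The smallest exact permutation p-value for Pearson's r was that of Lepr with Irs1 (r 0.815, p-value 0.00556, adjusted 0.250; Spearman's rho 0.857, exact p-value 0.0238, adjusted 0.357, n = 7), with r at 0.888 without the 2 libraries farthest from the Lepr median.

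**Figure D3:**
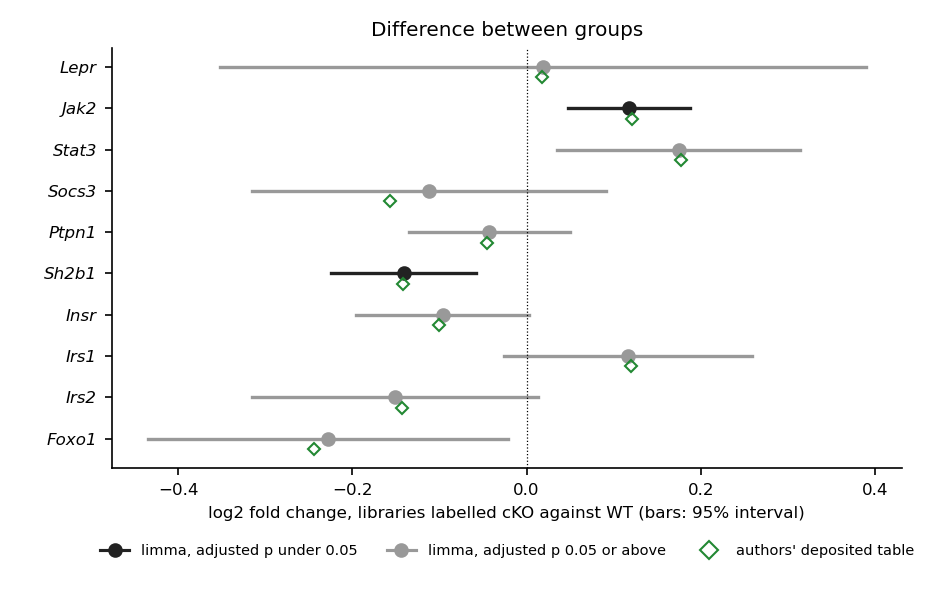
limma log2 fold changes of the 10 genes with 95% intervals, libraries labelled cKO against WT, in black where the adjusted p-value was under 0.05, with the values of the authors' deposited table as green diamonds. The black points are Jak2 at 0.12 and Sh2b1 at -0.14, and the interval of Lepr, from -0.35 to 0.39, is the widest.

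The authors' deposited table called 0 of the 10 genes and 4.94% of all 32494 at an FDR under 0.05. In it 4 of the 10 had an unadjusted p-value under 0.05, as had 16.1% of all listed genes. These 2 shares include the many genes under a mean of 1 CPM, and all 10 members were above it. By limma over the 15359 tested genes the unadjusted share was 31.1%. In the authors' deposited table the FDR was 0.210 for Jak2, 0.131 for Sh2b1, 0.172 for Stat3 and 0.193 for Foxo1. The log2 fold changes of the authors' deposited table had the same sign as those of limma for 10 of 10 genes, with 0.12 for Jak2 and -0.14 for Sh2b1. The recovered reads gave 2 of 10 by edgeR's quasi-likelihood test, where 13.7% of all genes were called, and 2 of 10 by DESeq2, where 17.9% were. Both named Jak2 (edgeR adjusted p-value 0.0414, DESeq2 adjusted p-value 0.0221) and Sh2b1 (0.0291 and 0.00731).

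The other genes of the pathways were read through lists of 104 genes, of which 95 were tested. By limma 10 of the 95 (10.5%) were past the threshold, 5 higher and 5 lower, against 14.1% of all tested genes. The median log2 fold change over the 95 was -0.0069, beside 0.0092 over all tested genes. The lists as a whole thus held no larger share of called genes than the table did.

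Of the 31 tested genes of leptin and cytokine receptor signalling, 3 were higher and 1 was lower. Stat2, a transcription factor of interferon signalling, fell from 32.0 ± 2.77 CPM (SD over 7 mice) to 27.3 ± 2.18 CPM (SD over 5; limma, -0.22 on the log2 scale, SE 0.066, adjusted p-value 0.0424). Leprot rose from 22.3 ± 2.18 to 26.5 ± 2.73 CPM (0.24, adjusted p-value 0.0489). Grb2, an adaptor that links receptors to RAS, rose from 142 ± 4.35 to 153 ± 5.52 CPM (0.11, adjusted p-value 0.0456). Leaving out single mice ended the call of Leprot in 10 of 12 fits (limma adjusted p-values up to 0.112), of Grb2 in 11 of 12 (up to 0.0959) and of Stat2 in 7 of 12 (up to 0.0930). Over these fits the log2 fold changes stayed at 0.19 to 0.28 for Leprot, 0.095 to 0.13 for Grb2 and -0.25 to -0.18 for Stat2. With the thalamic score in the fit, Stat2 (limma adjusted p-value 0.298), Leprot (0.333) and Grb2 (0.367) were not past the threshold. Lep, the gene of leptin itself, was under the minimum level.

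Of the 42 tested genes of insulin, PI3-kinase and mTOR signalling, 1 was higher and 3 were lower. Rps6kb2, an S6 kinase downstream of mTOR, fell most, from 29.8 ± 3.64 CPM (SD over 7 mice) to 21.5 ± 1.75 CPM (SD over 5), with groups that did not overlap (limma, -0.45 on the log2 scale, SE 0.082, adjusted p-value 0.00617). Pik3cd, a catalytic subunit of PI3-kinase, fell from 32.9 ± 4.36 to 26.3 ± 1.04 CPM (-0.30, adjusted p-value 0.0265). Tsc2, which holds mTOR in check, fell from 129 ± 5.08 to 113 ± 6.22 CPM (-0.19, adjusted p-value 0.0125). Rps6kb2 and Tsc2 kept their call in all 12 fits that left out 1 mouse, and Pik3cd lost it without cKO 9 (0.0530) or cKO 12 (0.0545). With the thalamic score in the fit Rps6kb2 (limma adjusted p-value 0.0448) and Tsc2 (0.0281) were past the threshold, and Pik3cd (0.298) was not. Ins1, Ins2, Insrr and Trib3 were under the minimum level.

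Among transcripts that STAT3 or FOXO factors are known to control, the shares past the threshold were 11.1% and 7.69%, against 14.1% of all tested genes. Of 9 tested STAT3 targets 1 passed, Serpina3n, a protease inhibitor of reactive astrocytes, which rose from 24.8 ± 4.39 CPM (SD over 7 mice) to 33.3 ± 4.36 CPM (SD over 5; limma, 0.42 on the log2 scale, adjusted p-value 0.0296). Of 13 tested FOXO targets 1 passed, Cited2, a transcriptional co-regulator, which fell from 59.3 ± 8.55 to 41.2 ± 9.29 CPM (-0.53, adjusted p-value 0.0166). Serpina3n lost its call in 7 of the 12 fits that left out 1 mouse (limma adjusted p-values up to 0.0654), with log2 fold changes of 0.36 to 0.49, and Cited2 in none (up to 0.0420). With the thalamic score as a covariate neither was past the threshold (0.352 and 0.185). The astrocyte marker score was 8.05 to 8.53 in the libraries labelled WT and 8.23 to 8.59 in those labelled cKO (exact permutation p-value 0.124), and its part in the Serpina3n difference was not tested.

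**Figure D4:**
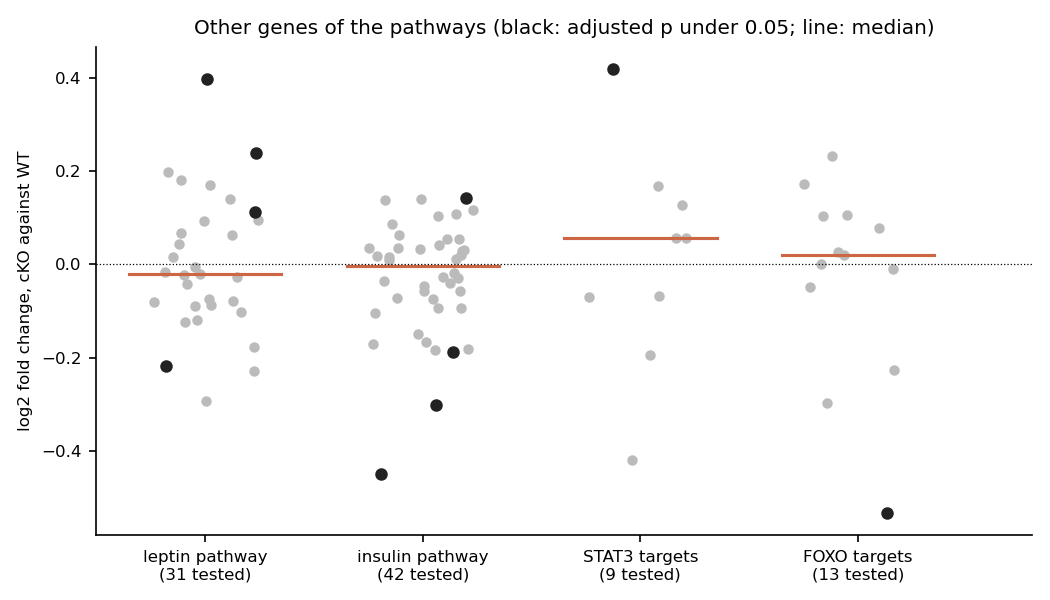
limma log2 fold changes of the 95 tested genes in the 4 pathway lists, libraries labelled cKO against WT, one point per gene, black where the adjusted p-value was under 0.05, with the median of each list as a line. The medians lie between -0.020 and 0.057, and the black points run from Cited2 at -0.53 to Serpina3n at 0.42.

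Markers of other cells that the tissue could hold were set beside these values. The scores of neurons, oligodendrocytes, microglia, endothelial cells, mural cells, tanycytes with ependyma, and cortical or striatal neurons each had an exact permutation p-value above 0.05. The choroid plexus score was 1.78 to 2.11 in the libraries labelled WT and 1.63 to 1.89 in those labelled cKO (exact permutation p-value 0.0341, or 0.136 adjusted over 12 lists), with 17.4 to 30.4 CPM and 15.9 to 21.8 CPM in sum, and the choroid plexus is a place of high Lepr expression. The pituitary score was 0.531 to 0.867 and 0.604 to 1.30 (exact p-value 0.0303, adjusted 0.136), with 3.58 to 6.51 CPM and 4.34 to 14.9 CPM in sum. Within the WT group, no pair of the choroid plexus or pituitary score with a member passed an adjusted p-value of 0.05 over 120 pairs. The smallest exact permutation p-value for Pearson's r among them was that of choroid plexus with Stat3 (r 0.769, p-value 0.0516, adjusted 0.402). With Lepr the choroid plexus score had r 0.356 (0.460, adjusted 0.834). With 7 mice a strong correlation can fail this threshold, so the absence of a passing pair says little. Foxo1 with the oligodendrocyte score failed it at r -0.950 (exact permutation p-value 0.00694, adjusted 0.402). The part of these scores in the group differences of the members was not tested, other than by the fits with the thalamic and hypothalamic scores.

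The tested genes whose deviations from the group means were most like those of Jak2 over the 12 libraries were Ran (Pearson r 0.897), Cst3 (0.885) and the pseudogene Ubb-ps (0.881), whose reads may be shared with Ubb. For Sh2b1 they were Eef1a2 (0.945), Rfng (0.937) and Smarca4 (0.923). They are the top of 15358 genes compared, of which 0.1% reached 0.803 for Jak2 and 0.819 for Sh2b1, and are given as a description.

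**Figure D5:**
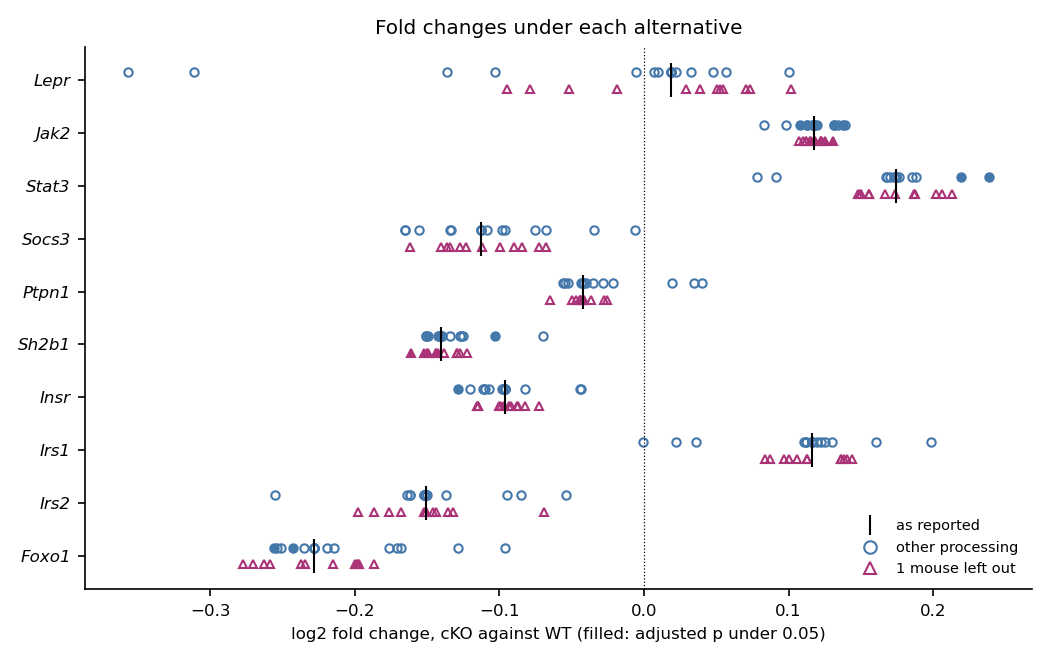
log2 fold changes of the 10 genes as reported (black bars), under 16 other ways of processing (blue circles; 15 for Socs3) and in the 12 fits that each left out 1 mouse (purple triangles), filled where the adjusted p-value was under 0.05. Jak2 stays between 0.083 and 0.14 and Sh2b1 between -0.16 and -0.070, while Lepr crosses 0.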

How the data were processed

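The authors deposited normalised CPM (each gene's reads relative to the scaled library total) for 12 libraries. Their own test was deposited beside it, giving each gene its log2 fold change, its mean CPM on a log2 scale, and a p-value with its FDR. The submitters' processing notes name bcl2fastq, FastQC 0.11.9, STAR 2.7.9a, SAMtools, Subread and featureCounts. The build, annotation and strand setting are not given in the sources used here. In the deposited CPM 100% of values were whole multiples of a step per library (within 0.001 of a read), so whole reads were recovered. Columns were matched by name, and 0 were left unused.

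The main test was limma 3.58.1 (R 4.3.3; lmFit, eBayes with trend) on log2(CPM + 1), over the 15359 genes averaging 1 CPM or more, with Benjamini-Hochberg adjustment over all of them and a threshold of 0.05. The added 1 makes fold changes of scarce genes look smaller than they are. Exact permutation tests were two-sided. edgeR 4.0.16 and DESeq2 1.42.0 were run on recovered reads as alternatives. The fits were tested on simulated data. Replicates were compared pairwise by chi-square, using genes that reached 20 reads in the pair, and none of the 31 pairs within a group matched within sampling noise (3.04 to 26.3 per degree of freedom). The labels do not say more of the mice than their numbers. Promoters came from RefSeq (GRCm38.p6). The members and lists were chosen with earlier results of these data known. All members were named, and of the lists the genes past the threshold, up to 6 in each direction; 2 of these are not reported here. Counting error was taken from reads, which carry no molecular identifiers.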

Additional observations from a re-analysis of the deposited data

Results flagged for a closer look

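Of 44 groups of values (10 genes and 12 marker scores in each group of mice), 3 held a library far from the rest, where chance gives about 1 in 20 groups, or 2.2. Ptpn1 was at 37.2 CPM in cKO 12, against 37.8 to 38.0 CPM in the other libraries labelled cKO, a gap smaller than counting error. Irs2 was at 99.4 CPM in WT 6, against 110 to 118 CPM in the other libraries labelled WT. The score of neuronal markers was 9.36 in cKO 13, against 9.20 to 9.23 in the other libraries labelled cKO, and cKO 13 was also the lowest library for Irs2, at 79.3 CPM.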

How the results depend on the processing

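Beside the 2 members past the threshold (limma, adjusted over all genes), the count was 4 with arrayWeights. It was 3 with the hypothalamic score as a covariate (Jak2, Sh2b1 and Foxo1), where 19.9% of all genes were called. It was 1 after median centring (Jak2), 1 after the GC content and length correction (Stat3) and 1 without the 4 libraries of low hypothalamic score (Foxo1). The thalamic score as a covariate left 0 (3 by unadjusted p-values under 0.05, as had 3740 of all 15359 genes), both scores together left 0 (4, as had 4476) with 1768 of all genes past the threshold, and the 4 libraries of low score by themselves gave 0 (0). Fits without 1 mouse gave 0 to 2 (3 to 5 unadjusted), and 0 without WT 1, WT 4, WT 11 or cKO 14. Listed pathway genes past it numbered 26 with arrayWeights, 16 by DESeq2, 18 with the hypothalamic and 5 with the thalamic score, 4 in the 4 libraries and 6 (without WT 1 or cKO 9) to 13 in fits without 1 mouse, in place of 10. All genes past it numbered 5126 with arrayWeights, 817 with the thalamic score, 109 in the 4 libraries and 1158 (without WT 1) to 2302 in fits without 1 mouse, in place of 2172. Lepr, Ptpn1 and Irs1 changed sign under some alternatives. Lepr was at -0.14 with arrayWeights, -0.36 with the thalamic score, -0.31 with both scores, -0.0057 after the GC content and length correction, -0.10 without the 4 libraries, and -0.095 to 0.10 in fits without 1 mouse. Ptpn1 was at 0.035 with the thalamic score, 0.040 with both and 0.019 after the correction, and Irs1 at -9.24e-04 in the 4 libraries. The other members kept their direction under these alternatives, and the cause of the shifts was not tested. The hypothalamic score as a covariate, the GC content and length correction and the splits by hypothalamic score were chosen after seeing the data. No paired analysis was possible because the groups share no mouse number. Socs3 had no value at a minimum mean of 5 CPM, and its 36 to 154 reads per library limit it.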
